A study of Homo sapiens with 6 samples.

Results

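The 10 enzymes described here build purine nucleotides from small precursors, and each was measured by RNA-seq in 6 libraries of K562 cells, a Bcr-Abl-positive human line from chronic myeloid leukemia. They were PPAT, GART, PFAS, PAICS, ADSL and ATIC, which together form inosine monophosphate (IMP), IMPDH1, IMPDH2 and GMPS, which turn IMP into GMP, and ADSS2, which with ADSL turns IMP into AMP. The members were taken by gene name from a table of 12486 genes, and 10 of 10 had a row and passed the filter on low values described further on. Of the libraries, 3 came from cells with a stable control shRNA against luciferase (sh-luc), and the other 3 came from cells with a stable shRNA against lncRNA-IUR1 (sh-IUR1), an RNA that the sample labels name lncRNA-up91. The shRNAs were delivered by lentivirus, and a single shRNA sequence against lncRNA-IUR1 was used. In each group 1 library has no replicate number and the other 2 are named r1 and r2. The study asked how gene expression differs between control and lncRNA-IUR1 knockdown cells.

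De novo purine synthesis starts when PPAT transfers an amino group from glutamine to phosphoribosyl pyrophosphate (PRPP), and the purine ring is then assembled on the sugar, with formyl groups that one-carbon metabolism supplies. Proliferating cells rely on this pathway for DNA and RNA precursors, and cells can also recover purine bases by salvage. Several of its genes are well known targets of the transcription factor MYC, which binds the E-box CACGTG.

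PPAT and PAICS face away from each other across a short stretch of DNA, and the sequence is shown because the levels of this pair are compared further on. PPAT (gene identifier 5471) lies on the minus strand of chromosome 4 from 56393362 to 56435615 in RefSeq GRCh38.p14, and PAICS (10606) lies on the plus strand from 56410507 to 56464578. Annotated starts of PAICS are at 56410507 (within PPAT), 56435752 and 56436260, and 136 bases lie between the start of PPAT and that at 56435752. GART (2618) on the minus strand of chromosome 21, from 33503931 to 33542893, is divergent in the same way from SON (6651), which encodes a splicing protein and starts at 33543038, a gap of 144 bases. The bases between the starts, read on the plus strand, are given with each CCAAT box (on either strand) in capitals, for chr4:56435616-56435751 and chr21:33542894-33543037.
PPAT and PAICS: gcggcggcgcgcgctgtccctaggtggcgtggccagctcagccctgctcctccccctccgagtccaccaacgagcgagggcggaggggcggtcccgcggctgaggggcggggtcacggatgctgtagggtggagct
GART and SON: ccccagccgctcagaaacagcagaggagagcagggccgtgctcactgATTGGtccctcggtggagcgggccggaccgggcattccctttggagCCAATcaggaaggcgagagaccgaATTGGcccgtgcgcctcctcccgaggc
The stretch between PPAT and PAICS was 75.0% G and C and had 15 CG dinucleotides, and that between GART and SON was 66.7% G and C with 11 CG dinucleotides. The first held no CCAAT box and the second held 3.

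The remaining enzymes are spread over other chromosomes. In the same annotation PFAS (5198) spans 8247608 to 8270486 on chromosome 17, ADSL (158) spans 40346500 to 40387527 on chromosome 22 and ATIC (471) spans 215312059 to 215368592 on chromosome 2. GMPS (8833) and IMPDH2 (3615) are both on chromosome 3, from 155869430 to 155944020 and from 49024325 to 49029398. IMPDH1 (3614) is on chromosome 7 from 128392277 to 128409982, and ADSS2 (159) is on chromosome 1 from 244408494 to 244452060. GENCODE release 44 places IMPDH1, IMPDH2 and ADSS2 on the minus strand and PFAS, ADSL, ATIC and GMPS on the plus strand.

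RefSeq windows (GRCh38.p14) from 250 bases before to 50 bases after an annotated start were used for 8 of the 10 enzymes (not for ADSL and IMPDH2). For PFAS and GMPS the window was set on starts at 8249289 and 155870650. Their outermost gene starts, at 8247608 and 155869430, were not searched. The E-box CACGTG, which reads the same on both strands, was in a window of 3 of these 8 enzymes (PPAT, PAICS and ATIC, 37.5%) and of 8.77% of 27305 genes. PPAT and PAICS share the same E-box at chr4:56435792-56435797, 182 bases before the PPAT start and 40 after the PAICS start at 56435752. ATIC has an E-box 46 bases before its start and another 29 bases after it. The shared E-box is shown in capitals with 10 bases on each side, together with the 120 bases before the ATIC start (chr2:215311939-215312058) with their E-box in capitals, both on the plus strand.
PPAT and PAICS E-box: gtatttgctgCACGTGgaaatctccg
ATIC upstream: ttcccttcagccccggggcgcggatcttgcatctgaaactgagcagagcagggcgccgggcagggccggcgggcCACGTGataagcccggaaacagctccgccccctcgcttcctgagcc
Searched on both strands, the NRF1 core GCATGCGC was in 0 of the 8 enzymes (3.68% of genes), the ATF4 element TGATGCAA in 0 (1.08% of genes), the ETS element CCGGAAGT in GART (4.95% of genes) and CCAAT in GART (39.7% of genes). These matches describe letters in the windows and do not show binding.

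In K562 cells the 10 enzymes differed in level by more than an order of magnitude in FPKM (fragments scaled by transcript length and library size), a unit that allows levels of different genes to be compared. IMPDH2 was the highest with 280.7 ± 17.6 FPKM (SD over 6 libraries), followed by PAICS with 195.2 ± 12.5, GART with 166.5 ± 7.25 and ATIC with 126.9 ± 7.25 FPKM. The ranges of these 4 genes over the libraries did not overlap. GMPS with 83.1 ± 3.29 and ADSL with 81.4 ± 2.41 FPKM could not be placed in order, since GMPS was above ADSL in 2 of 6 libraries. IMPDH1 had 43.5 ± 2.71, PFAS 28.7 ± 2.53, PPAT 22.2 ± 2.10 and ADSS2 17.4 ± 1.22 FPKM. PFAS was above PPAT in 5 of 6 libraries, and PPAT was above ADSS2 in 6 of 6, although both pairs of ranges overlapped. PPAT, which catalyses the committed step, was thus the lowest of the IMP-forming enzymes in mean level. ADSS1, the other gene for adenylosuccinate synthase, was at 5.31 to 6.06 FPKM, below the lowest ADSS2 value of 15.42 FPKM.

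Before the groups are compared, the libraries need a description. Each library had a total of 579820 to 606240 FPKM over its listed genes, the table gives no fragment counts, and depth was not recovered here. The defining genes of K562 cells were present: 13 of 13 erythroid markers had a row, with HBG2 (a fetal globin) between 2558.91 and 3564.84 FPKM. Of 14 markers of other blood cells 7 had a row, and LYZ made up 106.96 to 118.74 FPKM of their sum, which ranged from 112.1 to 125.4 FPKM among sh-luc libraries and from 118.8 to 121.3 FPKM among sh-IUR1 libraries. The T-cell genes CD3E and CD3G were at 0 in at least 1 library and never above 0.29 FPKM. The unnumbered sh-luc library stood apart in a list of 19 genes of the integrated stress response, with a mean log2(FPKM + 1) of 5.07 against 6.12 and 5.93 in sh-luc r1 and r2 and 6.15, 6.30 and 5.82 in sh-IUR1 (unnumbered, r1, r2). Enzyme values are therefore given with and without it. The level of lncRNA-IUR1 itself was not analysed here, and no value below checks its knockdown. RNA came from whole cultures, and fewer cells with a transcript cannot be told apart from less transcript per cell.

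Of the 10 enzymes, 0 differed between sh-IUR1 and sh-luc at an adjusted p-value under 0.05 in limma, a linear model fitted to the 12276 genes that averaged 0.1 FPKM or more. The enzymes had adjusted p-values between 0.930 and 0.985, and the share of all genes called was 0%. At an unadjusted p-value under 0.05, 0 of the 10 enzymes were found by limma and 0 by a linear model without moderation, where limma found 1.65% of all genes (203) higher and 0.994% (122) lower in sh-IUR1. With quantile normalization this split of all genes turned to 134 higher and 178 lower. The groups overlapped for each of the 10 enzymes, while among all genes 4.04% were higher and 3.03% lower in sh-IUR1 without overlap. The log2 fold change of FPKM + 1 (sh-IUR1 minus sh-luc) was above 0 for 6 enzymes and below 0 for 4, and its median was 0.020, beside 0.019 for all genes tested. The standard errors ranged from 0.056 to 0.097, and the changes, at most 0.11 in either direction, lay within 95% intervals that include 0. Without the unnumbered sh-luc library 0 enzymes were called, 4 were above 0 and 6 below, and the median was -0.0045, beside 0.0047 for all genes.

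**Figure D1:**
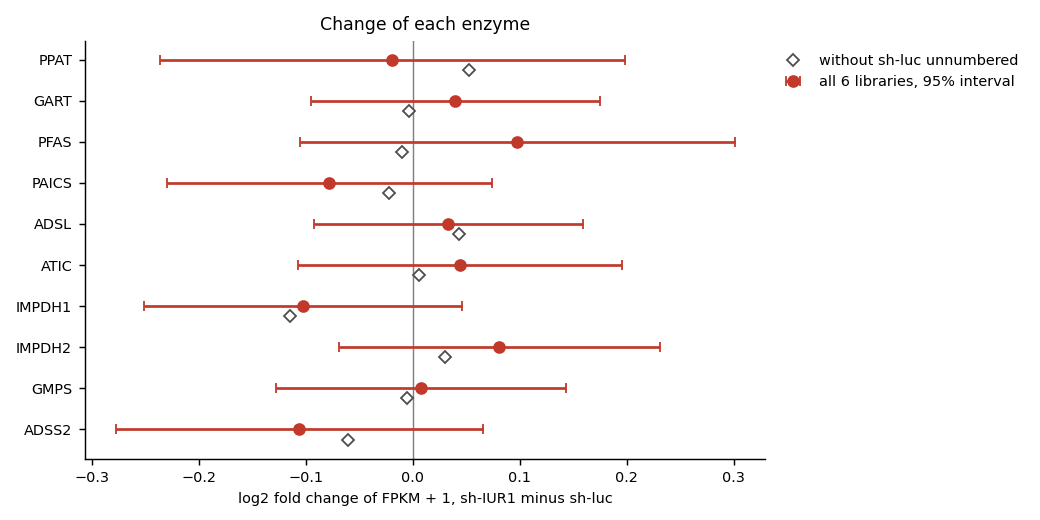
Log2 fold change of FPKM + 1 (x axis, sh-IUR1 minus sh-luc) of each enzyme with all 6 libraries (filled circles, bars are 95% confidence intervals from limma) and without the unnumbered sh-luc library (open diamonds). The 10 intervals include 0, and the estimates of PPAT, GART, PFAS and GMPS change sign without that library.

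PPAT, the glutamine-using first enzyme, was at 24.67, 21.15 and 21.09 FPKM in sh-luc (unnumbered, r1, r2) and at 22.89, 19.12 and 24.11 FPKM in sh-IUR1. The highest value was in the unnumbered sh-luc library and the lowest in sh-IUR1 r1, and the groups overlapped. The log2 fold change was -0.019 (standard error 0.097), with a 95% interval from -0.24 to 0.20 that had the largest error of the 10 enzymes. Without the unnumbered sh-luc library the log2 fold change was 0.052.

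GART, a trifunctional enzyme of the middle steps, was at 154.45, 170.41 and 167.91 FPKM in sh-luc and at 171.95, 173.10 and 161.28 FPKM in sh-IUR1. Its lowest value was in the unnumbered sh-luc library and its highest in sh-IUR1 r1, which is the reverse of PPAT. GART had a log2 fold change of 0.040, with an interval from -0.096 to 0.17, and it was -0.0039 without the unnumbered sh-luc library. SON, across the 144 bases from GART, was at 79.08, 62.51 and 63.37 FPKM in sh-luc and at 60.79, 55.53 and 67.17 FPKM in sh-IUR1. In SON the unnumbered sh-luc library was the highest and sh-IUR1 r1 the lowest, the opposite of GART, and its log2 fold change was -0.15 (standard error 0.10, adjusted p = 0.930 from limma), and -0.045 without the unnumbered sh-luc library.

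PFAS, which uses glutamine for a further amino group, was at 23.60, 29.08 and 30.54 FPKM in sh-luc and at 29.22, 29.96 and 29.55 FPKM in sh-IUR1. Its sh-IUR1 values lay within 1.03-fold of each other, whereas the unnumbered sh-luc library was below the other 5 libraries. The log2 fold change of 0.097 had the widest reach upwards of the 10 enzymes, with an interval from -0.11 to 0.30, and it was -0.011 without that library.

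PAICS, a bifunctional enzyme that follows PFAS and GART, was at 216.41, 192.00 and 193.37 FPKM in sh-luc and at 194.68, 177.50 and 197.52 FPKM in sh-IUR1. As in PPAT, the unnumbered sh-luc library was the highest and sh-IUR1 r1 the lowest. PAICS had a log2 fold change of -0.078, with an interval from -0.23 to 0.074, and -0.022 without the unnumbered sh-luc library.

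ADSL, which cleaves intermediates of both the IMP and the AMP route, was at 81.52, 77.08 and 82.77 FPKM in sh-luc and at 82.09, 84.16 and 80.72 FPKM in sh-IUR1. Its highest library was 1.09 times its lowest, the smallest ratio of the 10 enzymes, and 10.2% of the 6314 genes averaging 10 FPKM or more had a smaller one. Its log2 fold change was 0.033, with an interval from -0.092 to 0.16, and 0.043 without the unnumbered sh-luc library.

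ATIC, the bifunctional enzyme that closes the ring, was at 118.20, 130.14 and 126.19 FPKM in sh-luc and at 132.01, 135.93 and 118.63 FPKM in sh-IUR1. The order of the 6 libraries was the same as in GART, with sh-IUR1 r1 at the top and the unnumbered sh-luc library at the bottom. ATIC had a log2 fold change of 0.044, with an interval from -0.11 to 0.20, and 0.0055 without the unnumbered sh-luc library.

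**Figure D2:**
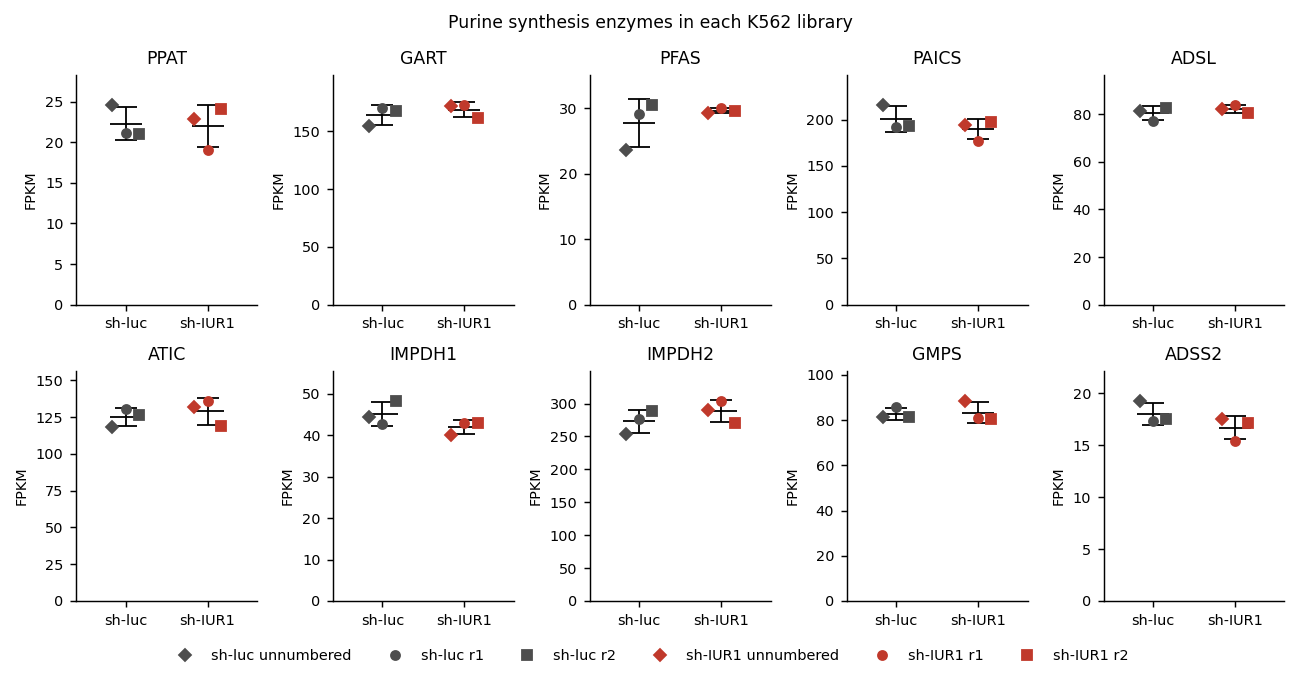
FPKM (y axis, from 0) of each enzyme in the 3 sh-luc and 3 sh-IUR1 libraries (diamond unnumbered, circle r1, square r2), with the mean and SD of each group. The groups overlap in the 10 panels, and the unnumbered sh-luc library is the highest in PPAT, PAICS and ADSS2 and the lowest in GART, PFAS, ATIC and IMPDH2.

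In the guanine branch, IMP dehydrogenase (the rate-limiting enzyme of GMP synthesis) is encoded by a pair of genes. IMPDH2 was at 253.84, 276.11 and 288.49 FPKM in sh-luc and at 290.66, 303.99 and 270.91 FPKM in sh-IUR1. A pair of sh-IUR1 libraries was above every sh-luc library, sh-IUR1 r2 was not, and the log2 fold change was 0.081 with an interval from -0.069 to 0.23. It was 0.030 without the unnumbered sh-luc library. IMPDH1 was at 44.30, 42.81 and 48.26 FPKM in sh-luc and at 40.02, 42.88 and 42.87 FPKM in sh-IUR1. The groups overlapped by a narrow margin, since sh-luc r1 was below sh-IUR1 r1 and r2. The log2 fold change of IMPDH1 was -0.10 with an interval from -0.25 to 0.046, and it kept its sign without the unnumbered sh-luc library (-0.11). GMPS, which converts XMP to GMP, was at 81.30, 85.80 and 81.31 FPKM in sh-luc and at 88.47, 81.04 and 80.40 FPKM in sh-IUR1. Both its highest and its lowest value were in sh-IUR1, and its log2 fold change was 0.0077 with an interval from -0.13 to 0.14. It was -0.0051 without the unnumbered sh-luc library, and -0.0083 with median-ratio scaling of the 6 libraries.

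ADSS2, which takes IMP towards AMP, was at 19.27, 17.37 and 17.50 FPKM in sh-luc and at 17.49, 15.42 and 17.19 FPKM in sh-IUR1. Of the sh-IUR1 libraries 1 was above the lowest sh-luc value. A two-sided exact permutation test over the 6 libraries gave p = 0.2. With 3 libraries against 3 the design cannot give less than p = 0.1 in this exact permutation test, and the other 9 enzymes gave p-values of 0.3 or more. The log2 fold change of ADSS2 was -0.11 (interval -0.28 to 0.065), and -0.061 without the unnumbered sh-luc library.

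A pair of ratios within libraries were compared, since both genes of a ratio come from the same RNA. PAICS was 8.77, 9.08 and 9.17 times PPAT in sh-luc and 8.51, 9.28 and 8.19 times PPAT in sh-IUR1, with means of 9.01 ± 0.208 and 8.66 ± 0.562 (SD, n = 3 each). The highest ratio was 1.13 times the lowest, and the groups did not differ beyond their spread (log2 difference -0.058, two-sided exact permutation test, p = 0.4). IMPDH2 was 5.73, 6.45 and 5.98 times IMPDH1 in sh-luc and 7.26, 7.09 and 6.32 times in sh-IUR1. This ratio was higher in 2 sh-IUR1 libraries than in every sh-luc library, and sh-IUR1 r2 was below sh-luc r1. The log2 difference was 0.19 (two-sided exact permutation test, p = 0.2), and it was 0.15 without the unnumbered sh-luc library. Over these 2 ratios the p-values adjusted by the Benjamini-Hochberg method were both 0.4.

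Summed over the 6 IMP-forming enzymes, the control libraries had 618.85, 619.86 and 621.87 FPKM and the knockdown libraries 632.84, 619.77 and 611.81 FPKM. The highest of these sums was 1.03 times the lowest, in a sum over genes that were extreme in different libraries. For IMPDH1, IMPDH2 and GMPS together the control libraries had 379.44, 404.72 and 418.06 FPKM and the knockdown libraries 419.15, 427.91 and 394.18 FPKM, most of it from IMPDH2. Both sums overlapped between the groups, with ratios of the means of 1.002 and 1.03 and p = 0.9 and p = 0.5 in two-sided exact permutation tests.

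**Figure D3:**
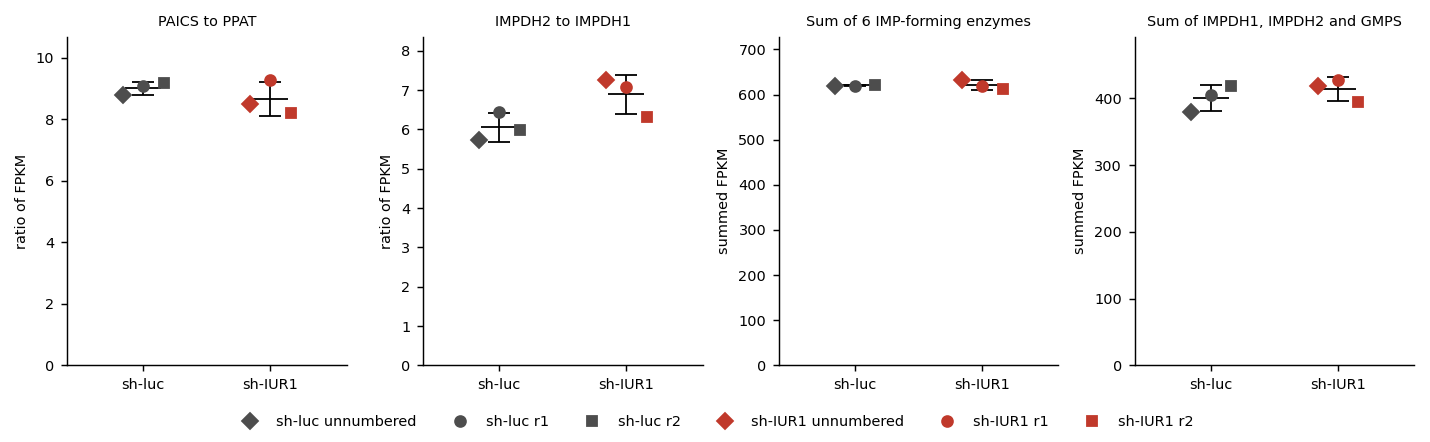
Ratio of FPKM of PAICS to PPAT and of IMPDH2 to IMPDH1, and summed FPKM of the 6 IMP-forming enzymes and of IMPDH1, IMPDH2 and GMPS (y axes, from 0), in each library, with the mean and SD of each group. The groups overlap in the 4 panels, and the IMPDH2 to IMPDH1 ratio spans 5.73 to 7.26.

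Across the 6 libraries the enzymes did not vary together. GART, ATIC and IMPDH2 had their lowest value in the unnumbered sh-luc library and their highest in sh-IUR1 r1, an arrangement that 18.3% of all genes tested had. PPAT, PAICS and ADSS2 had the reverse, as did 12.9% of all genes. PFAS, ADSL, IMPDH1 and GMPS had other extremes. Relative to each gene's own mean log2(FPKM + 1), the unnumbered sh-luc library was at 0.15 for PAICS, at -0.099 for ATIC and at -0.26 for PFAS, and sh-IUR1 r1 was at -0.20 for PPAT and at 0.12 for IMPDH2. The order of the libraries in GART and ATIC was that of the mean of the stress response genes, from sh-IUR1 r1 through sh-IUR1 unnumbered, sh-luc r1, sh-luc r2 and sh-IUR1 r2 to sh-luc unnumbered. IMPDH2, with the same extremes, had sh-luc r2 above sh-luc r1 and so another order. The share of all genes with the order of GART and ATIC was not counted. The part of the stress response in the enzyme levels was not tested, and the libraries with the extreme values are 1 of each group.

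**Figure D4:**
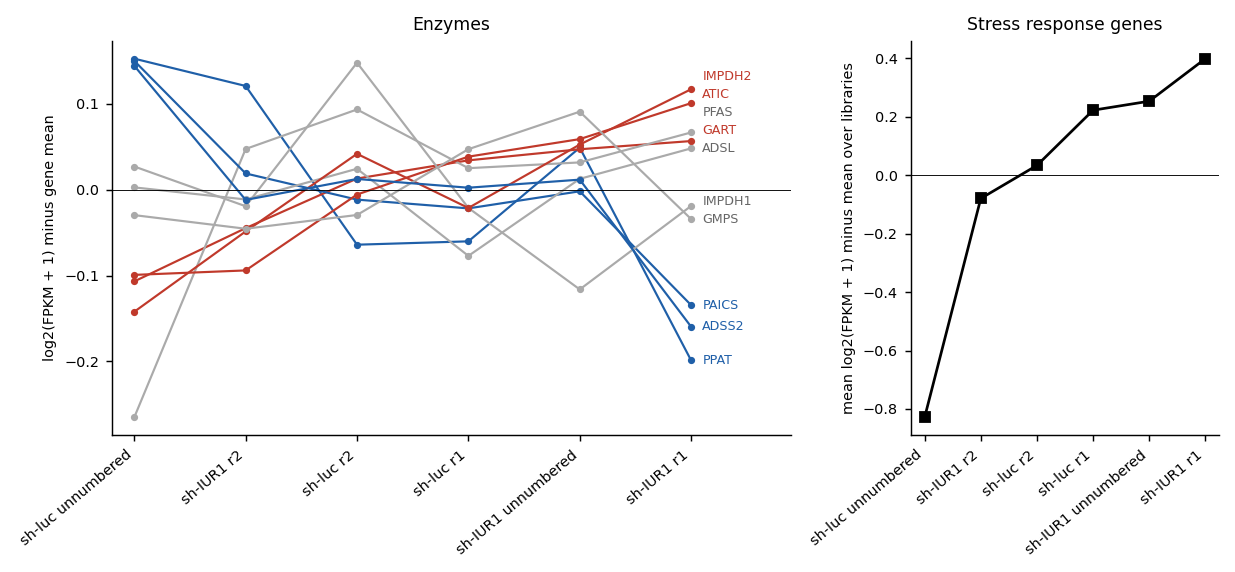
Left, log2(FPKM + 1) of each enzyme minus its mean over the 6 libraries (y axis), with GART, ATIC and IMPDH2 in red, PPAT, PAICS and ADSS2 in blue and the other 4 in grey. Right, the mean log2(FPKM + 1) of 19 stress response genes minus its mean over the libraries, by which the libraries are ordered in both panels from sh-luc unnumbered (lowest) to sh-IUR1 r1 (highest). Colours were set by which of the outermost libraries held the lowest and the highest value. Red lines therefore run upwards and blue lines downwards between those libraries by definition.

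Likeness between enzymes was measured as the root mean square difference of these centred log2 values over the 6 libraries, for 45 pairs. The most alike were PAICS and ADSS2 (0.022), followed by GART and ATIC (0.029) and GART and IMPDH2 (0.038). PPAT and PAICS, whose starts lie side by side, ranked 6 of 45 (0.060), and PPAT and PFAS were the least alike (0.22). The mean centred profile of the 10 enzymes stayed between -0.017 and 0.024 in every library. PPAT (0.12), PFAS (0.11), ADSS2 (0.088) and PAICS (0.086) lay further from this profile than the median gene averaging 10 FPKM or more (0.082). The other enzymes were nearer than that median, at 0.040 (ADSL) to 0.079 (IMPDH1). Each enzyme is itself part of this profile, which favours nearness, whereas genes outside the list are not part of it. The profile is thus a nearly flat average of unlike enzymes. Among genes that averaged 10 FPKM or more, the nearest to this average were RAD23B, CIAO1, GATC, STAU1 and LAS1L (root mean square differences of 0.0080 to 0.014). They varied little, RAD23B between 63.63 and 65.46 FPKM. With quantile normalization 1 of these 5 was among the nearest 5, and with 1 library left out between 0 and 3 were (0 without the unnumbered library of either group).

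The rest of nucleotide metabolism was described with lists of genes, and limma called 0 genes of these lists after adjustment. PRPP synthetases and their regulators supply the sugar on which the ring is built, and 3 of 4 were higher and 1 lower in sh-IUR1 (median log2 fold change 0.056, and 0.032 without the unnumbered sh-luc library). The lower one was PRPS2, a PRPP synthetase, at 39.93, 30.66 and 30.49 FPKM in sh-luc and at 28.89, 26.00 and 32.71 FPKM in sh-IUR1. The unnumbered sh-luc library held its highest value, and its log2 fold change of -0.19 (standard error 0.11) was -0.070 without that library.

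Of 10 salvage and breakdown genes tested, 4 were higher and 6 lower (median -0.068, and -0.024 without the unnumbered sh-luc library). HPRT1, which recovers hypoxanthine and guanine, had a log2 fold change of -0.097 (-0.055 without that library) and overlapping groups. Of 14 interconversion genes, 3 were higher and 11 lower (median -0.027, and -0.035 without that library). NME1, a nucleoside diphosphate kinase, did not overlap, with 468.38 to 500.20 FPKM in sh-luc and 424.18 to 460.66 FPKM in sh-IUR1. Its log2 fold change was -0.10 (adjusted p = 0.930 from limma), and -0.073 without the unnumbered sh-luc library. Of 7 pyrimidine genes, 2 were higher and 5 lower (median -0.051, and -0.030 without that library). DHODH and CTPS1, which act in UMP and CTP synthesis, were the ones without overlap. Their log2 fold changes were -0.091 and -0.051, and -0.093 and -0.056 without that library. Of 4 genes for ribonucleotide reductase and dNTP control, 1 was higher and 3 lower (median -0.027, and -0.028 without that library). In a proliferation list of 18 genes 5 were higher and 13 lower (median -0.080, and -0.046 without that library). CCNB1 and PCNA, a mitotic cyclin and the replication clamp, were the genes of that list with an unadjusted p under 0.05, a threshold that 1.65% of all genes passed as higher and 0.994% as lower. Their log2 fold changes were -0.25 and -0.18, and -0.14 and -0.11 without that library, and PCNA did not overlap. Of the 13 erythroid markers 1 was higher and 12 were lower (median -0.073, and -0.033 without that library), HBE1 without overlap, and of 5 markers of other blood cells that passed the filter 3 were higher and 2 lower (median 0.024, and 0.056 without that library). The share of all genes without overlap, 4.04% higher and 3.03% lower, is the background to these counts.

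The one-carbon genes supply formyl groups to GART and ATIC, and 6 of 10 were higher and 4 lower in sh-IUR1 (median 0.071, and 0.027 without the unnumbered sh-luc library). Mitochondrial MTHFD2 was at 108.76, 162.37 and 152.12 FPKM in sh-luc and at 169.45, 182.61 and 139.94 FPKM in sh-IUR1, and SHMT2 was at 125.48 in the unnumbered sh-luc library and between 155.64 and 197.86 FPKM in the other 5. Both had the library order of GART and ATIC, an order whose share among all genes was not counted. Their log2 fold changes were 0.23 and 0.19, with adjusted p-values from limma of 0.930. Without the unnumbered sh-luc library the log2 fold changes were 0.052 and 0.043. SHMT1 and ALDH1L1 were higher without overlap, as were 4.04% of all genes, with log2 fold changes of 0.13 and 0.25, or 0.081 and 0.16 without that library. ALDH1L1, at 2.57 to 4.17 FPKM, was the one gene of this list with an unadjusted p under 0.05 in limma (0.0355), which 1.65% of all genes had as higher. With 1 library left out the unadjusted limma p of ALDH1L1 was between 0.0103 and 0.115, and it was above 0.05 without either unnumbered library (0.115 for sh-luc, 0.0664 for sh-IUR1), sh-luc r2 (0.0678) or sh-IUR1 r1 (0.113). Quantile normalization gave ALDH1L1 an unadjusted limma p of 0.0589, and the unmoderated model one of 0.0905. The stress response list had 19 of 19 genes above 0, with a median log2 fold change of 0.43 that was 0.055 without the unnumbered sh-luc library, and it was chosen with results of these libraries known.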

How the data were processed

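K562 cells with sh-luc or sh-IUR1 were sequenced in 3 libraries per group, which the methods describe as independent groups of cells. The authors cleaned the reads and aligned them to the human build hg38. RPKM is the unit their methods name, with samtools 0.1.19. The aligner, the annotation and the handling of reads shared by paralogs such as IMPDH1 and IMPDH2 are not given in the sources used here. The deposited values are FPKM with 2 decimals. The authors also deposited a score (the z-score of FPKM), a cluster number and a fraction (cluster membership), which were not used. The smallest SD of FPKM over the libraries in the table was 0.0501, so genes with a smaller SD in FPKM are outside every count. Genes of higher level that varied little in proportion, such as RAD23B, are in the table.

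Of 12486 gene identifiers, 12363 had a symbol in RefSeq GRCh38.p14. Values were transformed to log2(FPKM + 1), a scale that understates changes of low genes, and genes averaging 0.1 FPKM or more entered limma 3.58.1 (R 4.3.3, trended eBayes, Benjamini-Hochberg adjustment). A count model was not applied to FPKM. Single values and ratios were compared with two-sided exact permutation tests. The enzymes and gene lists were chosen with earlier results of these data known. Named beside the 10 enzymes were SON, the 5 genes nearest in profile, ADSS1 and, of each list, at most the 3 genes with the smallest p-value. ADSS1, SHMT2 and the ranges of marker genes were added after their values were seen. Pearson's r of log2 values between libraries was 0.9907 to 0.9984, and at most 1.49% of genes had identical FPKM in 2 libraries. Figures were drawn with matplotlib 3.10.9 and permutation tests run with scipy 1.17.1 under Python 3.11.15.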

Additional observations from a re-analysis of the deposited data

How the results depend on the processing

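The pseudocount (0.1), the filter (none), the scaling (median-ratio or quantile), the trend (none), the replicate label as a block, an unmoderated model read at unadjusted p and the omission of each library in turn were varied. The number of enzymes called was 0 under these 13 settings, and the smallest unadjusted p of an enzyme was 0.102. Of 130 log2 fold changes of enzymes, 122 kept their sign and 8 reversed, in PPAT, GART, PFAS and GMPS. The filter, the trend, the replicate block and the moderation do not enter the log2 fold change of an enzyme. Under those settings its sign was therefore kept by construction, and these cases are counted among the 122. On omission of 1 library the range was -0.084 to 0.075 for PPAT, -0.0039 to 0.072 for GART, -0.011 to 0.17 for PFAS, -0.036 to 0.033 for GMPS and -0.017 to 0.064 for ADSS1. PPAT was above 0 on omission of sh-luc unnumbered (0.052) or sh-IUR1 r1 (0.075), GART and PFAS were below 0 on omission of sh-luc unnumbered, and GMPS was below 0 on omission of either unnumbered library or sh-luc r2. Median-ratio scaling gave -0.0083 for GMPS, and quantile normalization gave -0.027 for ADSS1. With 1 library left out, the median of the 10 enzymes ranged from -0.0052 (without the unnumbered sh-IUR1 library) to 0.040 (without sh-IUR1 r2), and was -0.0045 without sh-luc unnumbered. The cause of these reversals was not tested.

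All genes at an unadjusted p under 0.05 numbered 325, between 158 (without sh-IUR1 unnumbered) and 856 (without sh-luc r1) with 1 library left out, 711 without sh-IUR1 r2, and 533 with the replicate block. The unmoderated model called 344 genes. With the replicate block the log2 differences of the ratios were -0.058 (PAICS to PPAT) and 0.19 (IMPDH2 to IMPDH1). These equal the values without the block by construction, since each label occurs once in each group, and they are no separate check. Deviations from the group mean correlated between libraries of the same label at 0.04 (unnumbered), 0.39 (r1) and -0.34 (r2). With 3 libraries per group these values cannot tell whether the labels mark paired libraries. The block changed no call of an enzyme. Depth could not be used to set limits, since the table holds FPKM alone.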
